A study of Mus musculus with 6 samples.

Results

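The Krüppel-like factors Klf2, Klf3, Klf4, Klf5, Klf6, Klf7, Klf9, Klf10, Klf13 and Klf15 were examined in immortalized mouse proximal tubular cells after knockdown of Glis2. They are 10 of the 19057 genes that the bead array measured, and all 18 probes annotated with their symbols were taken. The genes were chosen by symbol with the intensities and the knockdown differences of these same arrays in view, but no numerical cut-off is recorded, and the list leaves out 7 other Klf genes on the array. The differences of these 10 genes are therefore described and not tested, and counts past the threshold of the fit over all genes are given only beside the share of all genes that passed it.

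Both groups were cultured proximal tubular cells of the C56BL/6 background, as the labels spell it. The 3 Control arrays came from cells carrying an anti-GFP shRNA and the 3 Glis2KD arrays from cells carrying an anti-Glis2 shRNA, a short hairpin RNA that lowers its target transcript. The cells were collected on day 7 after infection with the lentivirus. Neither separate infections or cultures within a group nor a clonal origin of the cells is stated in the labels, so p-values and errors measure only how far these samples spread, and that spread may be technical. Differences between the hairpins and lowering of Glis2 cannot be told apart in this design.

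Krüppel-like factors are transcription factors that bind CACCC boxes and GC-rich elements in promoters through zinc fingers at their C-terminal end, while their N-terminal parts recruit activators or corepressors. Glis2 belongs to the related Gli-similar zinc finger family. In the kidney, Klf4 and Klf15 are known from podocytes, Klf2 from the endothelium, Klf5 from the collecting duct and Klf6 from the response of tubules to injury. The comparison asks how the transcripts of these factors in cells given the Glis2 hairpin differ from those in control cells.

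Values are linear intensities with background included, and a probe counted as detected, or above background, if its average of all 6 arrays was over 138, the most frequent intensity (114) plus 3 SD of the values below it. On every array 40.2% of the probes exceeded this limit. Log2 intensities of arrays correlated at 0.995 within groups and at 0.980 to 0.982 between groups, across probes, which are not independent. The targeted gene, Glis2, read 278, 234 and 230 in control and 169, 161 and 176 in knockdown cells on its brightest probe, with no overlap. Its mean decreased by 31.8% as deposited, and with background subtracted the ratio of the means was 0.41. The second Glis2 probe went from 206 ± 13.6 to 161 ± 15.9 (SD), also with no overlap. Of 17 proximal tubule markers measured, 3 were above background (Aqp1, Mme and Pax8), while defining markers such as Lrp2, Cubn and Slc34a1 were not. The summed intensity of these 17 markers ran from 12426 to 14047 in control and from 2776 to 3066 in knockdown cells, mostly through Aqp1 (9760 to 365) and Mme (855 to 118), while Pax8 went from 817 to 706 and was not called. Of 9 general epithelial markers 8 were above background, and their sum ran from 76934 to 81806 and from 99084 to 101015. Krt8 and Krt18, which dominate that sum, rose, and Cdh1 (3960 to 3052) and Cdh16 (365 to 137) fell. None of 7 endothelial markers was above background. Of 3 podocyte markers Podxl and Synpo were, and the sum ran from 1207 to 1321 in control and from 1577 to 1642 in knockdown cells. Of 9 fibroblast markers Dcn and Acta2 were, with sums from 1218 to 1246 and from 2130 to 2427; Acta2 rose from 145 to 1302 and Dcn fell from 275 to 139. Of 10 markers of other tubule segments Slc12a1 and Slc12a3 were, with sums from 2245 to 2474 and from 2172 to 2280. Of 6 leukocyte markers Csf1r was, with sums from 743 to 785 and from 799 to 842. The part of these markers' changes in the results below was not tested.

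The promoters of 8 of the 10 genes were matched in the RefSeq table, and those of the 3 genes with the largest positive and the 2 with the largest negative differences are shown, to give the sequence context of the CACCC and GC boxes in the genes that differed most. Each run is the 250 bases before the annotated start, written 5′ to 3′ in the direction of transcription. Capitals mark CACCC boxes, GC boxes (GGGCGG) and a match to the MEF2 consensus, each on either strand, and neighbouring matches can overlap.
Klf2 promoter, GRCm38.p6, chr8:72318812-72319061, plus strand: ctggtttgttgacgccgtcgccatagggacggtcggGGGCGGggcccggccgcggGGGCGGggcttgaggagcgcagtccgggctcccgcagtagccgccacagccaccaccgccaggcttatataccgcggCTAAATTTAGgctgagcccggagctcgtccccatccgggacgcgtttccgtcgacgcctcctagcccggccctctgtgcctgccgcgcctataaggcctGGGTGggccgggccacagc
Klf6 promoter, GRCm38.p6, chr13:5861239-5861488, plus strand: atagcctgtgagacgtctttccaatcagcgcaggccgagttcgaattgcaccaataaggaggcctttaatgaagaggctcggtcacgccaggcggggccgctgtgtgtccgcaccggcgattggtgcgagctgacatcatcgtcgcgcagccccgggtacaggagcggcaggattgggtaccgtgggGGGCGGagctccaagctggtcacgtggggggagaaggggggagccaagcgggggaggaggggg
Klf13 promoter, GRCm38.p6, chr7:63938916-63939165, minus strand: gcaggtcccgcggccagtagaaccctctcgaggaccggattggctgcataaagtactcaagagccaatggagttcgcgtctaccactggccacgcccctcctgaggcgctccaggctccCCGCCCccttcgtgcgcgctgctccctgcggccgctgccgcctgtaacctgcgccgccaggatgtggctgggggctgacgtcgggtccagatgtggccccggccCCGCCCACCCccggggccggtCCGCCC
Klf4 promoter, GRCm38.p6, chr4:55532476-55532725, minus strand: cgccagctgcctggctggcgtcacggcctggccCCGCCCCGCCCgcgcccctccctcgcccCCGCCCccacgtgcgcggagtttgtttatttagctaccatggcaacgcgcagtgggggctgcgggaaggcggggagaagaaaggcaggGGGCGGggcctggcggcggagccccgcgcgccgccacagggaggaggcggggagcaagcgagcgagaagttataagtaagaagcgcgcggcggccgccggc
Klf9 promoter, GRCm38.p6, chr19:23140976-23141225, plus strand: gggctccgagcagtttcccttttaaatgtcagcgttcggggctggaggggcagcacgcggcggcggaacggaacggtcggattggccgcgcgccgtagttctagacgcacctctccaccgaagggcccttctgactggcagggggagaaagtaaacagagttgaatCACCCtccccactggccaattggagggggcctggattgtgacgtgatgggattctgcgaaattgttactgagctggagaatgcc

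A CACCC box was found in 6 of the 8 promoters and a GC box in 7, against 52.0% and 32.7% of all 32851 promoter windows of this length. The 8 windows were rich in G and C, with a median of 71.4% against 52.4% over all windows, and the chance of meeting either motif rises with that content. Klf3, whose window is not printed, held 5 CACCC and 6 GC boxes. The Klf4 and Klf6 windows held no CACCC box and the Klf9 window no GC box. The run CTAAATTTAG in the Klf2 promoter, ending 108 bases before the start, matches the consensus of MEF2, the factor through which the kinase ERK5 is known to act on Klf2. This consensus was met in 2.92% of all windows and in no other of the 8. CCAAT, the NF-Y box, occurred in 4 of the 8 windows and in 33.8% of all. The E-box CACGTG was found in 3 of them and in 6.02% of all. The Gli-type sequence TGGGTGGTC was in none of the 8 windows and in 0.225% of all.

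Across the family the differences went in both directions. Klf2, Klf5, Klf6, Klf7 and Klf13 were higher in the knockdown and Klf3, Klf4 and Klf9 were lower, each with no overlap between the groups on its brightest probe. These 8 genes were also the 8 above background, and all 8 passed the threshold of limma's fit over all genes (5 higher, 3 lower). Over all genes 22.5% passed, 11.1% higher and 11.4% lower, and among the 9577 genes above background 43.4% did, 21.4% higher and 22.1% lower. Groups did not overlap in 32.2% of all genes and in 52.4% of those above background. The median log2 difference of the 10 genes was 0.23 and their median absolute difference 0.48, against 0.0039 and 0.10 over all genes. For the 8 above background these medians were 0.38 and 0.70, against -0.0058 and 0.22 over all genes above background. Nothing is read from these counts, since the list was drawn up with this comparison known.

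**Figure D1:**
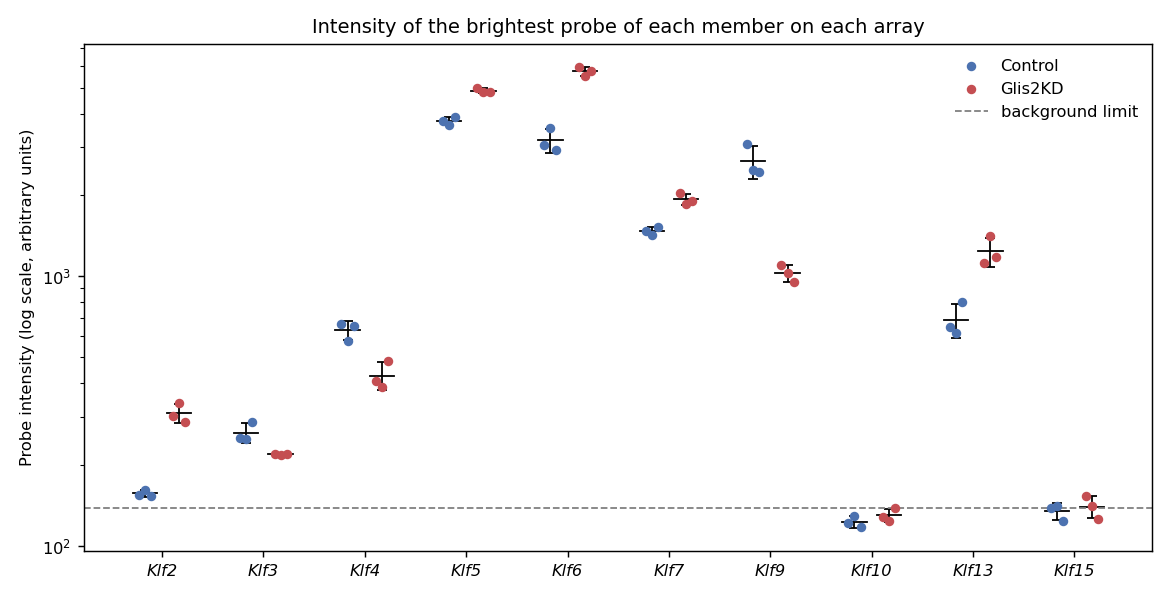
Intensity of the brightest probe of each gene on each array, on a log axis, with the control arrays at the left and the knockdown arrays at the right of each pair; black bars give the mean ± SD of 3 arrays and the dashed line the background limit of 138. The 2 groups are separate for 8 genes and overlap for Klf10 and Klf15. Klf10 lies below the limit except on 1 knockdown array, which just reaches it, and Klf15 lies around the limit. Heights of different genes come from different probes and are not comparable.

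Klf9, a repressor that binds the Sin3 corepressor and is induced by glucocorticoid and thyroid hormones, had the largest difference of the family in the values as deposited, though not with background subtracted, where that of Klf2 was larger. Its 1 probe read 3094, 2465 and 2425 on the control arrays and 1098, 1026 and 947 on the knockdown arrays. All knockdown arrays lay far below the lowest control array. The means were 2661 ± 376 and 1024 ± 75.6 (SD, n = 3), so the mean decreased by 61.5%, and the log2 difference was -1.37 ± 0.099 (SE). In bulk RNA, fewer cells with the transcript and less transcript per cell cannot be told apart. That difference stood at rank 105 from the lowest among the 9577 genes above background. With background subtracted it was -1.48, and leaving out any single array kept it between -1.43 and -1.26. Neighbours were the 50 genes above background closest to Klf9 on chromosome 19, taken equally from each side. Their median difference was 0.12, opposite in sign to that of Klf9.

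Klf13, a close relative of Klf9 that also binds Sin3 and is known as an activator of the chemokine gene Ccl5 in T cells, differed in the opposite direction. Its brightest probe read 646, 616 and 799 in control and 1116, 1408 and 1178 in knockdown cells. The lowest knockdown array lay well above the highest control array. The means were 687 ± 98.1 and 1234 ± 154 (SD, n = 3), a log2 difference of 0.85 ± 0.11 (SE). The second probe went from 344 ± 33.8 to 543 ± 22.0 and gave 0.66, so both probes moved the same way. Genes around it on chromosome 7 had a median of 0.16, and the difference relative to them was 0.69.

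Klf10, the TGF-beta-inducible early gene of the same Sin3-binding group, was not measurably above background. Its brighter probe read 122, 129 and 117 in control and 127, 123 and 138 in knockdown cells. Only the highest of these, on a knockdown array, reached the limit, and the groups overlapped. The other probe stayed below the limit on all 6 arrays, with means of 118 ± 6.56 and 113 ± 5.78.

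Klf2, a factor known for its induction by shear stress in endothelium and for keeping T cells quiescent, was higher in the knockdown. Its probe read 154, 161 and 154 in control and 302, 338 and 289 in knockdown cells. The control arrays lay close together just above the background limit and far from the knockdown arrays. The means were 156 ± 4.16 and 309 ± 25.4 (SD, n = 3), a ratio of 1.98 and a log2 difference of 0.98 ± 0.088 (SE). Because most of the control signal was background, the size of this difference depends on how background is treated. The log2 difference was 2.19 with background subtracted, where the ratio of the means was 4.57, and 1.22 after normexp correction. As given above, none of the 7 endothelial markers had a mean over all 6 arrays above background, although Kdr exceeded the limit on 1 control and 2 knockdown arrays and Tek on 1 knockdown array. Genes around Klf2 on chromosome 8 had a median of -0.083.

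Klf4, a differentiation factor of epithelia that is also used in reprogramming to pluripotency, was lower on its brightest probe. That probe read 667, 572 and 650 in control and 409, 389 and 485 in knockdown cells. All 3 knockdown arrays lay below the lowest control array. The means were 630 ± 50.5 and 428 ± 50.9 (SD, n = 3), a log2 difference of -0.56 ± 0.097 (SE). The 3 probes of the gene gave unequal sizes in the same direction. The second probe went from 338 ± 52.9 to 272 ± 38.1 and gave -0.31, and the third went from 201 ± 14.4 to 190 ± 25.4 and gave -0.086. In both the groups overlapped, and neither passed the threshold of the fit over all probes. With the mean of the 3 probes the difference was -0.32.

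**Figure D2:**
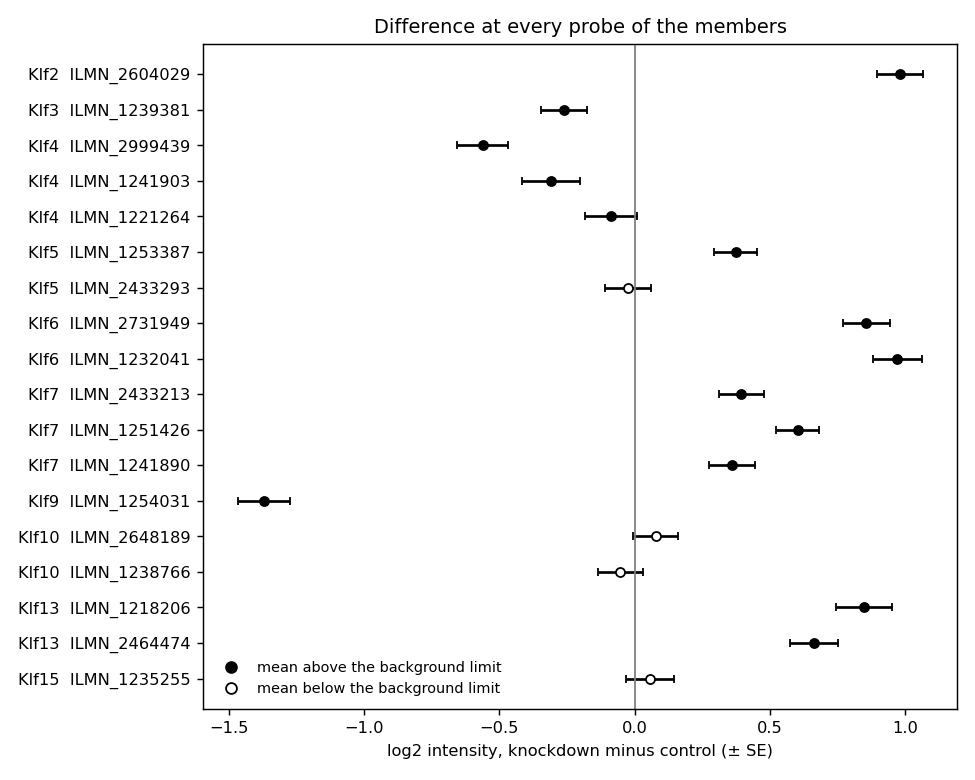
Difference in log2 intensity, knockdown minus control, at each of the 18 probes, with bars for ± SE from limma's fit over all probes (n = 3 arrays a group); filled points have a mean above the background limit and open points a mean below it. All probes of Klf6, Klf7 and Klf13 lie on the positive side and all 3 of Klf4 on the negative side, from -0.56 to -0.086, while the open probes of Klf5, Klf10 and Klf15, which only bound the level, lie near 0.

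Klf6, an early response gene that activates components of the TGF-beta pathway and is known from injured tubules, was higher at both of its probes. The brighter probe read 3072, 3541 and 2935 in control and 5958, 5534 and 5751 in knockdown cells. All knockdown arrays exceeded the highest control array by a wide margin. The means were 3183 ± 318 and 5748 ± 212 (SD, n = 3), a log2 difference of 0.86 ± 0.091 (SE). The dimmer probe went from 323 ± 28.8 to 633 ± 52.8 and gave 0.97. Both probes lay well above background, and the subtraction of background left the value of the brighter probe at 0.88. On chromosome 13 only 33 genes above background lay within the same search, since Klf6 is near the chromosome's end, and their median was 0.18, so the difference relative to them was 0.68.

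Klf7, a factor known from neuronal outgrowth, was higher at all 3 of its probes. Its brightest probe read 1471, 1414 and 1515 in control and 2036, 1857 and 1896 in knockdown cells. The arrays of a group lay close together and the groups were separate. The means were 1467 ± 50.6 and 1930 ± 93.9 (SD, n = 3), a log2 difference of 0.40 ± 0.086 (SE). The other probes gave 0.60 and 0.36, from 1032 ± 21.7 to 1567 ± 52.1 and from 1050 ± 46.4 to 1348 ± 98.3, again without overlap. Neighbouring genes of chromosome 1 had a median of 0.19, and the difference of the brightest probe relative to them was 0.20. The part of the neighbourhood in the result was not tested.

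Klf5, an activator of proliferation genes in epithelia, was higher on the probe that detected it. That probe read 3751, 3635 and 3896 in control and 4976, 4813 and 4828 in knockdown cells. Replicates were tight, and every knockdown array lay above every control array. The means were 3761 ± 131 and 4872 ± 89.9 (SD, n = 3), a log2 difference of 0.37 ± 0.084 (SE). The other probe was at background on all 6 arrays, with means of 109 ± 5.89 and 108 ± 7.46. Averaging both probes therefore lowered the difference to 0.17, which no longer passed the threshold. Genes around Klf5 on chromosome 14 had a median of -0.078.

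Klf3, which represses transcription by recruiting the CtBP corepressors, had a small difference, the smallest of the 8 genes above background on the brightest probes as deposited but not with background subtracted, with averaged probes or relative to neighbours. Its only probe, annotated with a cDNA record rather than a RefSeq transcript, read 252, 248 and 288 in control and 219, 217 and 219 in knockdown cells. The groups did not overlap, but control replicate 3 lay farther above the other control arrays than those lay above the nearest knockdown array. The means were 262 ± 22.1 and 218 ± 1.07 (SD, n = 3), a log2 difference of -0.26 ± 0.088 (SE). Without control replicate 3 it was -0.19 and no longer past the threshold. It also missed the threshold when any of the 3 knockdown arrays was left out, with background subtracted, after normexp correction and with a trended, robust variance, 7 of the 19 fits in all. With background subtracted the difference was -0.50.

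Klf15, a factor induced by glucocorticoids that acts on amino acid metabolism and restrains fibrosis in kidney and heart, lay at the background limit. Its probe read 139, 141 and 123 in control and 153, 141 and 126 in knockdown cells. In each group 2 of the 3 arrays exceeded the limit, the groups overlapped, and the mean over all arrays, 137, was just below it. The log2 difference was 0.057 ± 0.093 (SE), and it ran from -0.0084 to 0.13 when single arrays were left out, turning negative without control replicate 3 or knockdown replicate 1. Of the 18 probes of the family, 14 were above background and 12 passed the threshold of limma's fit over all 45281 probes (9 higher, 3 lower), where 15.6% of all probes and 37.9% of those above background passed.

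**Figure D3:**
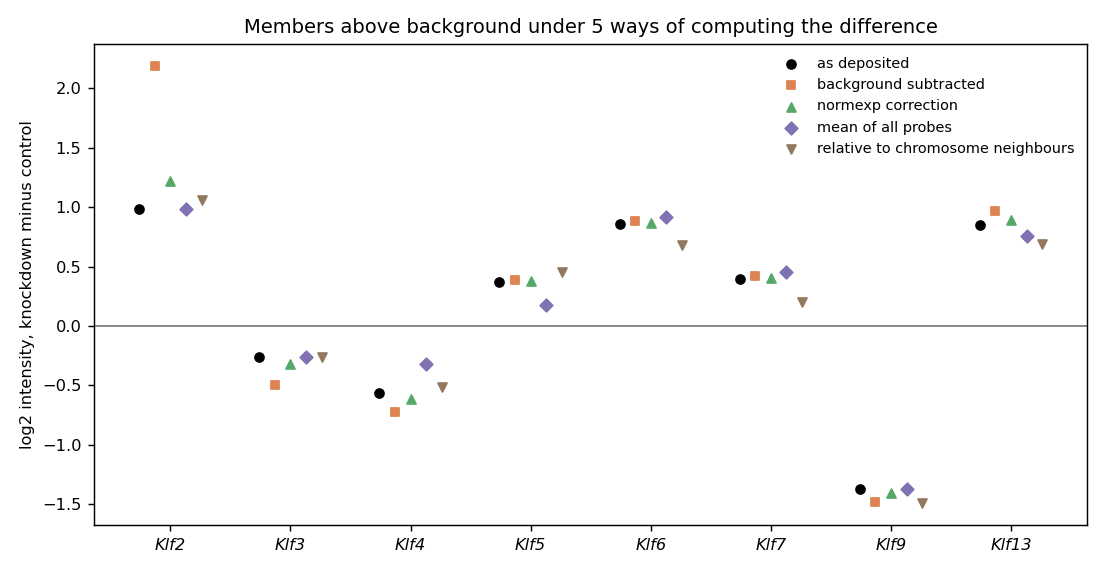
Log2 difference, knockdown minus control, of the 8 genes above background computed from the values as deposited, with the most frequent intensity subtracted, after normexp correction, with the mean of all probes of a gene, and relative to neighbouring genes on the chromosome. Every gene stays on its side of 0 in all 5, while the size moves most for Klf2, from 0.98 to 2.19 with background subtracted.

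The counts of the following lists stand beside the 22.5% of all genes, and the 43.4% of genes above background, that passed the same threshold, and beside the median log2 difference of 0.0039 over all genes. The other Klf genes on the array were mostly undetected. Of 7 (Klf1, Klf8, Klf11, Klf12, Klf14, Klf16 and Klf17), 1 was above background and rose, and the median log2 difference was 0.071. Klf16, another Sin3-binding member, read 682, 573 and 740 in control and 828, 1021 and 880 in knockdown cells. The groups were separate, with a log2 difference of 0.45 ± 0.10 (SE) and limma's adjusted p = 0.00154. Its second probe went from 285 to 305 with overlapping groups. With background subtracted limma's adjusted p = 0.125, the highest of its alternatives, of which 0.000923 was the lowest. Of 8 related Sp genes measured, 3 were above background and 1 rose, with a median of 0.060. Sp6, an epithelial Sp factor, rose by 0.34 ± 0.10 (SE) with limma's adjusted p = 0.0187, and read 266, 342 and 367 in control and 404, 438 and 384 in knockdown cells. It lost its call without control replicate 1, where the difference was 0.20, without knockdown replicate 2 and with background subtracted, and its alternatives ran from limma's adjusted p of 0.00573 to 0.296. Sp1, the ubiquitous activator, went from 512 ± 41.3 to 552 ± 10.6 and was not called.

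Among 16 measured regulators of Krüppel-like factors and ubiquitin ligases that act on them, 13 were above background, 3 fell and 0 rose in limma's fit, with a median log2 difference of -0.087. At an unadjusted p under 0.05, 5 were lower and 0 higher, while of the reported targets below 3 were lower and 8 higher. The share of all genes at this unadjusted threshold was not computed, so nothing is read from these counts. Tgfbr1, the type I TGF-beta receptor whose signal induces Klf10, fell from 5454 ± 672 to 2720 ± 452 (SD, n = 3), a log2 difference of -1.01 ± 0.11 (SE) with limma's adjusted p = 1.9e-07. The ligase Wwp1, which targets Klf2 and Klf5 for degradation, fell by 0.38 ± 0.10 on the log2 scale with limma's adjusted p = 0.00621, and Smad2, a mediator of TGF-beta signals, by 0.27 ± 0.090 with limma's adjusted p = 0.0299. A second Wwp1 probe above background went from 266 ± 24.5 to 251 ± 19.2 with overlapping groups. It gave -0.080 and did not pass the threshold of the fit over all probes. The call of Wwp1 was lost without control replicate 2, with background subtracted and with its probes averaged, over a range of limma's adjusted p from 0.00378 to 0.156. That of Smad2 was lost in 7 settings, among them without control replicate 1, control replicate 2, knockdown replicate 1 or knockdown replicate 2, over a range from 0.015 to 0.136. The glucocorticoid receptor Nr3c1 went from 158 ± 17.6 to 131 ± 13.7 and was not called at limma's adjusted p = 0.0509, with alternatives from 0.0116 to 0.34. Nr3c1 was near the background limit, which 2 control arrays and 1 knockdown array exceeded. Its log2 difference was -0.27 as deposited and -1.04 with background subtracted. The kinases Map2k5 and Mapk7 of the pathway that ends at MEF2 had log2 differences of -0.027 and 0.16, not called. Map3k3, a further listed kinase, went from 621 ± 19.0 to 526 ± 60.8 with no overlap, a log2 difference of -0.24. It was not called at limma's adjusted p = 0.0638, with alternatives from 0.0124 to 0.249. Mef2d and Mef2c, the latter below background, had log2 differences of -0.15 and -0.084 and were not called.

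Of 11 measured cofactors, 8 of them above background, 2 rose and 3 fell, with a median log2 difference of -0.058. Ctbp2, a corepressor bound by Klf3, rose from 275 ± 6.92 to 396 ± 25.6, by 0.52 ± 0.087 (SE) with limma's adjusted p = 5.21e-05. The acetyltransferase Kat2b fell from 287 ± 0.399 to 184 ± 24.7, a log2 difference of -0.65 ± 0.096 with limma's adjusted p = 1.15e-05. Hdac3, a histone deacetylase, and Sin3b, the scaffold that Klf9, Klf10 and Klf13 bind, had log2 differences of -0.37 and -0.30 (limma's adjusted p = 0.00329 and 0.0129). Hdac2, another histone deacetylase, rose by 0.27 ± 0.088 (SE) with limma's adjusted p = 0.0286. Kat2b, Hdac3 and Hdac2 lost their calls with background subtracted. Hdac2 also lost its call without control replicate 1 or 3, without knockdown replicate 1 or 3, with its probes averaged and after normexp correction. Sin3b lost its call in 4 settings, among them without control replicate 1 or knockdown replicate 1. The paralog Sin3a went from 1808 ± 438 to 1709 ± 143, not called.

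Of 22 reported targets of the family 14 were above background, 4 rose and 2 fell, with a median log2 difference of 0.12. Plau, the urokinase gene that Klf6 is known to activate, fell from 7831 ± 876 to 3150 ± 78.7, a log2 difference of -1.31 ± 0.092 (SE) with limma's adjusted p = 1.04e-10, whereas Klf6 was higher. Bcat2, a branched-chain amino acid transaminase known as a Klf15 target, rose from 198 ± 15.3 to 325 ± 52.1, by 0.70 ± 0.11 with limma's adjusted p = 1.48e-05. Pdgfa and Ccnd1, both known to be activated by Klf5, rose by 0.52 ± 0.099 and 0.38 ± 0.086, with limma's adjusted p = 0.000283 and 0.00158. Another Ccnd1 probe gave 0.39 without overlap. The dimmest Ccnd1 probe, still above background, went from 6463 ± 1007 to 6942 ± 344 with overlapping groups. It gave 0.11 and did not pass the threshold of the fit over all probes. Pdgfa lost its call with background subtracted. Cdkn1a and Cdh1, also on this list, had log2 differences of 0.29 and -0.38 (limma's adjusted p = 0.0188 and 0.00356). Both calls were lost with background subtracted. The call of Cdkn1a also depended on normexp correction and on some single arrays. Some other listed targets were above background and not called. Among them, Nos3, Thbd and Tgfb1 had log2 differences of -0.24, -0.18 and -0.084, and Tgfbr2 and Eng of 0.20 and 0.023. Ccl5, the target of Klf13, and Smad7, a target of Klf10, were below background.

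Because Klf9 and Klf15 are known glucocorticoid-induced genes, 12 other such genes were compared. Of these 8 were above background, 3 rose and 3 fell, with a median log2 difference of 0.026. Per1, a clock gene, read 575, 520 and 546 in control and 313, 329 and 300.0 in knockdown cells, a log2 difference of -0.80 ± 0.087 (SE) with limma's adjusted p = 1.35e-07. Tsc22d3, the glucocorticoid-induced leucine zipper, read 1571, 1458 and 1661 against 1047, 840.0 and 853, a difference of -0.78 ± 0.096 with limma's adjusted p = 1e-06. Sgk1, a kinase that regulates sodium transport, differed in the opposite direction, with 1293, 1471 and 1433 in control and 4347, 3944 and 4096 in knockdown cells, a rise of 1.56 ± 0.088 with limma's adjusted p = 1.9e-12. The cell cycle inhibitor Cdkn1c rose by 1.11 ± 0.099 with limma's adjusted p = 6.19e-09. Fkbp5, a sensitive glucocorticoid target, went from 268 ± 37.2 to 285 ± 1.98, not called.

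**Figure D4:**
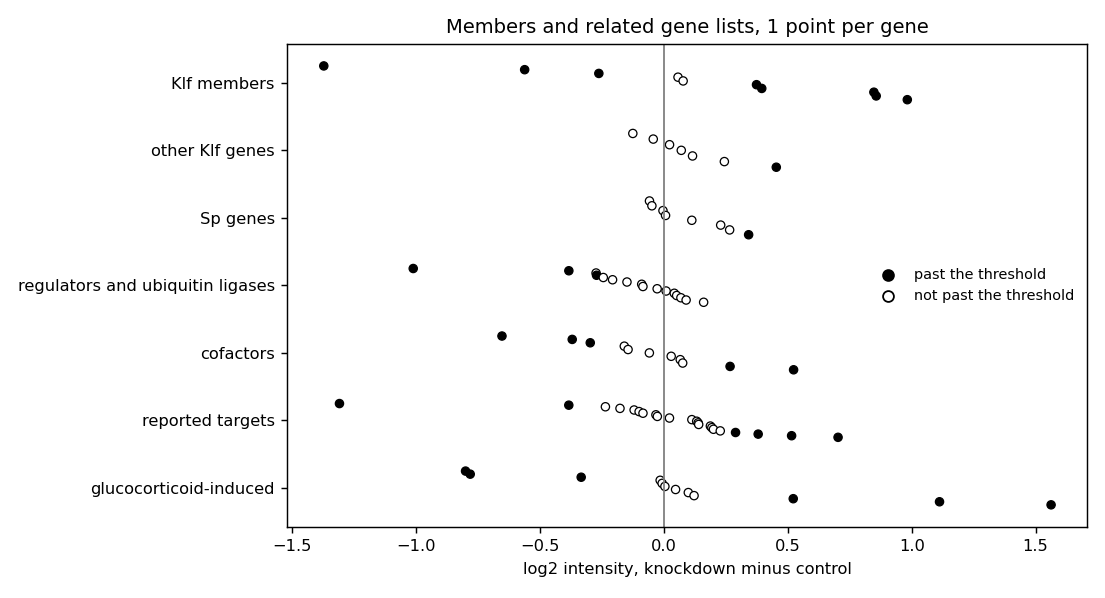
Log2 difference, knockdown minus control, of each gene of the family and of each measured gene in 6 related lists; filled points passed the threshold of limma's fit over all genes and open points did not, and the vertical spread within a row only separates points. The family's points reach from -1.37 for Klf9 to 0.98 for Klf2, and the points of the other Klf and Sp genes lie between -0.12 and 0.45.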

How the data were processed

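RNA of 6 samples was hybridised to Illumina mouse bead arrays. The authors deposited 1 linear intensity per probe and array; per the deposited values the 6 columns share 1 distribution and background is not subtracted. For the software and normalization: not given in the sources used here. Intensities were floored at 16, which changed no value, and transformed to log2. Of 45281 probes, 34885 had 1 gene symbol, 18 several and 10378 none, and 34807 were matched by Entrez identifier to RefSeq names (GRCm38.p6). For each gene the probe of highest mean was used. Groups were compared with limma 3.58.1 in R 4.3.3 (lmFit, eBayes), with Benjamini-Hochberg adjustment over all genes, or over all probes where stated, at 0.05, after the script was tested on simulated data. Precision is limited by the number of arrays.

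The members and lists were chosen with earlier results of these data known. Genes named from lists are up to 4 past the threshold with the smallest p and no overlap between the groups; others were named after their values were seen. Promoters are from RefSeq (GRCm38.p6); probe sequences were not used here. Same-numbered replicates were not treated as pairs, since their deviations did not correlate. Alternatives covered normalization, floor, offset, background, dim probes, probe rule, variance, block, single arrays and chromosome neighbours.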

Additional observations from a re-analysis of the deposited data

How the results depend on the processing

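Over 19 fits the count of genes past the threshold of limma's fit was 4290 in the values as deposited and 2632 with background subtracted; leaving out single arrays gave 3751 to 3994. In the 6 related lists 22 genes passed, 12 with background subtracted, and 18 to 22 without single arrays. The 5 higher members stayed 5 without any single array and were 4 with the mean of all probes, where Klf5 was lost, while the 3 lower members became 2 wherever Klf3 was lost. Of the 18 probes of the family 14 were above background, or 15 with the limit at 2 SD. The replicate number as a block gave 4119 genes, with 5 higher and 3 lower members; same-numbered arrays had correlations of -0.095, -0.039 and -0.040 in their deviations, and no array correlated best with its own number. No member above background changed sign in any of these fits. Dim probes are limited by background: differences of genes near 138 are understated, and undetected members may still be expressed.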
